A study of Homo sapiens with 4 samples.

Results

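SLIT2 encodes a large secreted glycoprotein that guides growing axons. It was 1 of 62700 annotated genes on which the crosslinks of the poly(PR) dipeptide were counted, and it was chosen by its number of crosslinking events, so its level and its rank are described here and not tested. All events on the plus strand of chromosome 4 between the annotated ends of SLIT2 (GRCh38, chr4:20251905-20620561, 368657 nt) were taken as its members, together with the significant clusters inside this span. The gene was covered by 1701 unique cDNAs at 1098 crosslinked positions, of 1244203 unique cDNAs in the 4 libraries together.

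Poly(PR) is an arginine-rich dipeptide repeat protein that is translated from the expanded repeat in an intron of C9orf72, a repeat that is found expanded in many familial cases of motor neuron disease and frontotemporal dementia. All 4 libraries are of a single condition: HEK293T cells, a transformed human embryonic kidney line, transiently transfected with PR100 carrying a triple FLAG tag, induced with 150 ng/ml doxycycline for 24 h and irradiated once with UV light at 254 nm and 160 mJ/cm2. Complexes pulled down by the FLAG tag were purified by SDS-PAGE in replicates 1 to 3 and with beads in replicate 4, and the random barcode that tells cDNAs apart had 5 nt in replicate 3 and 7 nt in each other library. The libraries held 334057, 604816, 125694 and 179636 events, and no library of FLAG alone, of GA100 or of cells without UV light was analysed here. An event therefore counts a cDNA that ended next to a crosslink, and the level of the transcript, the length of the gene and the strength of contact cannot be told apart in these counts.

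SLIT proteins are ligands that bind to ROBO receptors on the growth cone and on other migrating cells. In the developing spinal cord, SLIT made at the midline repels commissural axons that have crossed it, and the receptors pass the signal to GTPase-activating proteins, kinases and actin regulators. The amino-terminal part of the protein is built of leucine-rich repeats, one of which binds ROBO, and many of the exons that encode these repeats have the same short length. SLIT2 also hosts the microRNA gene MIR218-1 and the intronic transcript SLIT2-IT1.

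The reads of SLIT2 formed 5 significant clusters in the pooled libraries. The sequences at their summits are shown because they are the places in the gene where crosslinks of the pooled libraries were called significant, and each run covers 5 nt before to 24 nt after the position with the most cDNAs, read from GRCh38 on the plus strand. Capitals mark GANGA, the purine motif of which GAAGA is a member, and runs without capitals hold none. Cluster 1 lies in exon 2, which is coding, clusters 2 and 3 lie in the 5′ UTR part of exon 1, and clusters 4 and 5 lie in intron 4.
cluster 1, chr4:20256685-20256714: aauaacaucacaagaauuacGAAGAcagau
cluster 2, chr4:20252861-20252890: uuaaguccgcccccagucaguccccacuca
cluster 3, chr4:20253671-20253700: uccauauuauuuggugcacauuuucccugg
cluster 4, chr4:20271206-20271235: auuuuuuucacaaGAAGAacaagugacaga
cluster 5, chr4:20308151-20308180: gaagugauggggccuugagggauuagcagu

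Exon 2 had the highest density of events of the exons and is shown whole, with its only GANGA in capitals (chr4:20256672-20256743, plus strand). It is 72 nt long, with 27 A, 10 C, 14 G and 21 U.
exon 2: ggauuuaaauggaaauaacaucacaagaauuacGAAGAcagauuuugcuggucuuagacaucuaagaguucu

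SLIT2 held 646, 734, 143 and 178 events in replicates 1 to 4, which is 1934, 1214, 1138 and 991 CPM, where the events of each library are scaled to a total of 1000000. The mean was 1319 ± 420 CPM (SD, n = 4), and replicate 1 lay 1.95 times above replicate 4. Among protein-coding genes SLIT2 was in place 1, 2, 2 and 17 in replicates 1 to 4, so it was lower in the order in the library purified with beads than in the others. Of the 20046 protein-coding genes, 703 (3.51%) held at least 200 pooled events, and the median gene held 15. SLIT2 was first of all of them in the pooled count.

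The next genes in this order were NCL, which encodes the nucleolar protein nucleolin, with 1614 events and NEFM, which encodes the medium neurofilament subunit, with 1426. NCL had 946, 1260, 859 and 2383 CPM in replicates 1 to 4 and NEFM had 856, 1152, 859 and 1865 CPM. Both were highest in replicate 4, where SLIT2 was lowest. Their means of 1362 ± 702 and 1183 ± 475 CPM (SD, n = 4) lay within the spread of SLIT2, so the order of the 3 genes does not hold beyond the variation between libraries. Without replicate 1 SLIT2 had 1055 events and moved to place 4, and without replicate 2, 3 or 4 it stayed in place 1.

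Per length, SLIT2 was lower in the order. It had 4.61 events per kb, which is place 1158 among all protein-coding genes and place 219 among the 703 with at least 200 events. NCL had 53.6 events per kb and NEFM 267. Against the 249 protein-coding genes of at least 200 kb with at least 200 events, however, SLIT2 had the highest density (median 0.744 events per kb). This was also so for its introns alone, with 3.66 against a median of 0.607 events per kb. Both are descriptions, since SLIT2 was chosen by its count and its length of 369 kb is near the median of 389 kb. The introns hold most of the same events and are no separate support.

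The events followed the strand and the ends of the annotated gene. On the opposite strand of the same span there were 3, 4, 2 and 0 events in replicates 1 to 4. The 50 kb upstream held 2 events on the plus strand and the 50 kb downstream held 5, which is 0.04 and 0.1 events per kb. Both flanks and the opposite strand were thus far below the density inside the gene in the pooled counts, and also in each library.

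Most events lay in introns, but the exons were covered more densely. The annotated exons of all 12 transcripts take up 3.00% of the span and held 83, 195, 57 and 59 events in replicates 1 to 4. The introns held 563, 539, 86 and 119 events, which is 87.2% (95% exact binomial interval 84.3 to 89.6), 73.4% (70.1 to 76.6), 60.1% (51.6 to 68.2) and 66.9% (59.4 to 73.7) of the events of SLIT2. These intervals cover counting error only and take each cDNA as independent, although cDNAs often shared a position. Replicate 1 stood above the other libraries. The mean share was 71.9 ± 11.5% (SD, n = 4).

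Per kb, exons exceeded introns by 2.25, 3.55, 4.42 and 4.0 on the log2 scale in replicates 1 to 4. The mean log2 ratio was 3.56 ± 0.94 (SD), and it was above 0 in 4 of 4 libraries (p = 0.125, exact two-sided sign-flip permutation test). With 4 libraries this is the smallest p that the test can give, so a threshold of 0.05 could not be reached here. Without exon 1 the ratio was 2.48 ± 0.67. In the pooled counts the log2 ratio of 3.28 was in place 56 among 248 long genes with a median of 2.56, so an excess of exonic events was common among them.

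Exon 1 held more events than all of the other exons together. It is 2090 nt long, carries the whole 5′ UTR of 1911 nt and the start codon, and has a GC content of 64.9% against 36.1% for the whole span. It held 42, 117, 39 and 38 events in replicates 1 to 4, or 6.50% (95% exact binomial interval 4.73 to 8.69), 15.9% (13.4 to 18.8), 27.3% (20.2 to 35.3) and 21.3% (15.6 to 28.1) of the events of the gene. The interval of replicate 1 does not overlap those of the other libraries. These intervals take each cDNA as independent, but the 236 events lay at 124 positions, with up to 10 cDNAs of replicate 3 at 1 position. They are thus too narrow to judge the gap between libraries. In CPM per kb the libraries were closer, at 60.2, 92.6, 148 and 101, with a mean of 100.6 ± 36.5 (SD, n = 4).

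Within exon 1 the events were spread over the whole exon. The part before the start codon held 211 events (110 per kb) and the coding part held 25 (140 per kb). The first 1355 nt belong to the longest 5′ end alone, since the next annotated transcript of SLIT2 starts after them, and they held 34, 74, 17 and 23 events. These 148 events (109 per kb) lie upstream of every other annotated start, and each library had some of them.

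**Figure D1:**
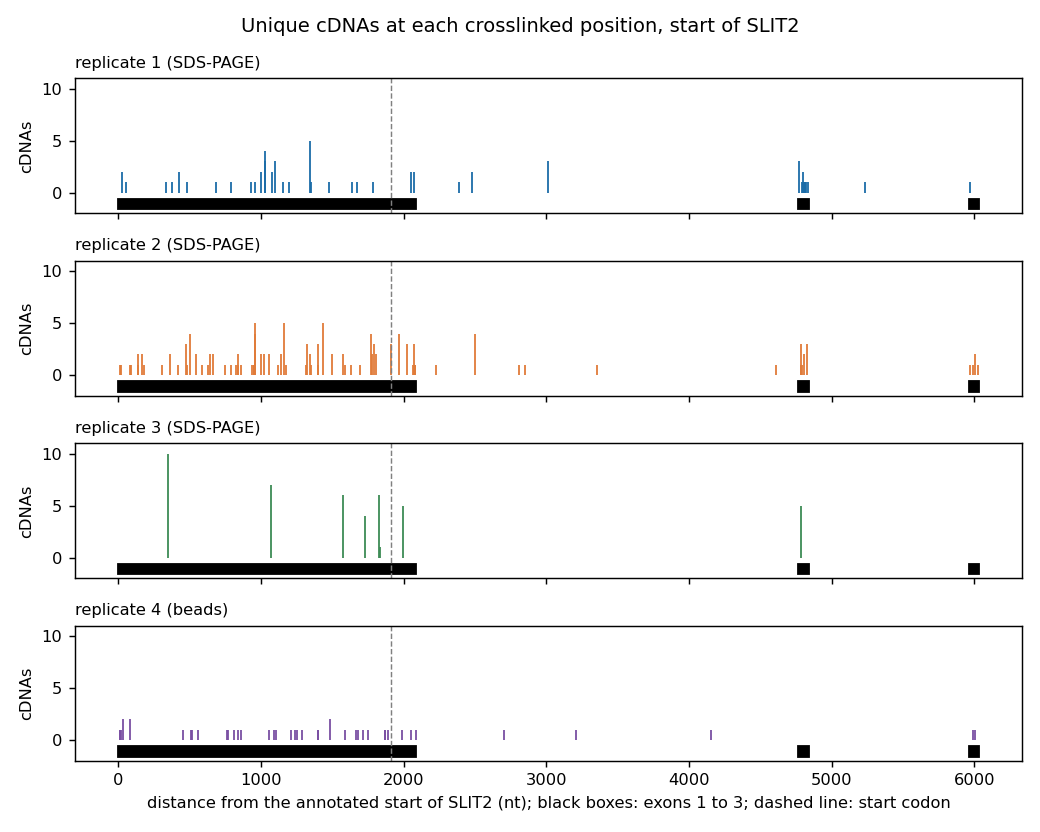
Unique cDNAs (vertical axis) at each crosslinked position of the first part of SLIT2, by distance from its annotated start in nt (horizontal axis), with a panel for each library. Replicates 1, 2 and 4 have many positions with few cDNAs in exon 1, whereas replicate 3 has few positions with up to 10 cDNAs each; exon 2 has events in replicates 1 to 3 and 0 in replicate 4.

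Exon 2 held 11, 11, 5 and 0 events in replicates 1 to 4, or 375 events per kb. Another 11 exons of SLIT2 have the same length of 72 nt, and together they held 30 events, with a median of 1 and a highest count of 8 in exon 3. The 27 events of exon 2 are all in cluster 1 (chr4:20256679-20256739). The position with the most cDNAs was nucleotide 19 of the exon, with 3 cDNAs in replicate 2 and 5 in replicate 3, and the events of replicate 1 lay at other positions of the exon. Replicates 1 and 2 also had a cluster of their own there, and the 178 SLIT2 events of replicate 4 included none in exon 2.

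The coding sequence outside exon 1 held 40, 72, 5 and 18 events in replicates 1 to 4, which is 27.1, 27, 9.02 and 22.7 CPM per kb. Replicate 3 was the lowest of the 4. Of the 37 exons of the canonical transcript, 7 held no event, and the median of exons 2 to 37 was 3 events. The 3′ UTR of 1552 nt held 1, 6, 13 and 0 events in replicates 1 to 4. In replicate 3 this was 9.09% of the events of SLIT2 (95% exact binomial interval 4.93 to 15.0), against 0.155%, 0.817% and 0% in the others, and 8 of its 13 cDNAs ended at 1 position. In the pooled counts the 3′ UTR had 12.9 events per kb, and without replicate 3 it had 4.51.

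Intron 4 held most of the intronic events. It is 198870 nt long (chr4:20268882-20467751), makes up 53.9% of the span, and held 402, 388, 56 and 83 events in replicates 1 to 4. This was 50.2 ± 9.77% (SD, n = 4) of the events of SLIT2, and 70.9% of the pooled events in canonical introns. Its density was 4.67 events per kb, against 2.38 for all other introns together. Among the 28 introns of at least 1 kb, intron 1 was the densest with 18 events (6.72 per kb), followed by intron 32 with 9 events (5.59 per kb) and intron 4. The first 2 of these rest on few events. Of the 36 introns, 9 held no event.

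The density fell along intron 4 from its 5′ to its 3′ end. Cut into 4 parts of equal length, it held 405, 242, 182 and 100 events in 5′ to 3′ order, which is 8.15, 4.87, 3.66 and 2.01 events per kb. Replicate 1 had 174, 97, 84 and 47 events in this order, replicate 2 had 160, 113, 79 and 36, and replicate 4 had 36, 22, 17 and 8. Each part of the intron in these 3 libraries held fewer events than the one before it. Replicate 3 had 35, 10, 2 and 9, so its last part did not follow the order of the others. The first 2 parts together held 67.4%, 70.4%, 80.4% and 69.9% of the events of the intron in replicates 1 to 4.

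The density was lower still in intron 5, the next intron, and higher again in later ones. Among the introns of at least 10 kb after intron 4, intron 5 had 0.776 events per kb, intron 9 had 2.04, intron 26 had 4.21, intron 29 had 2.03 and intron 33 had 4.05. Introns 26 and 33 were thus about as dense as intron 3, with 4.14 events per kb. Intronic events were rare beside exons: 9 of 1307 lay within 100 nt of a splice site of an annotated exon. The shares of the libraries had a mean of 0.901 ± 1.12% (SD, n = 4), against 1.89% of the intronic positions. Replicate 4 was above the share of the positions, at 2.52%, and the other libraries were below it.

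Over the whole gene, 71.7%, 72.1%, 66.4% and 74.7% of the events in replicates 1 to 4 lay in the 5′ 50% of the span. The mean was 71.2 ± 3.47% (SD), above 50% in 4 of 4 libraries (p = 0.125, exact two-sided sign-flip permutation test, the smallest p that it can give). With exon 1 left out it was 64.5 ± 7.23%, again above 50%. The first 10 kb alone held 74, 151, 44 and 46 events, or 22.2 ± 8.26% (SD, n = 4) in 2.71% of the span. In the pooled counts this share of 18.5% was in place 3 of the 249 long genes, whose median was 3.42%, and the share in the 5′ 50% was in place 21 with a median of 52.2%.

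**Figure D2:**
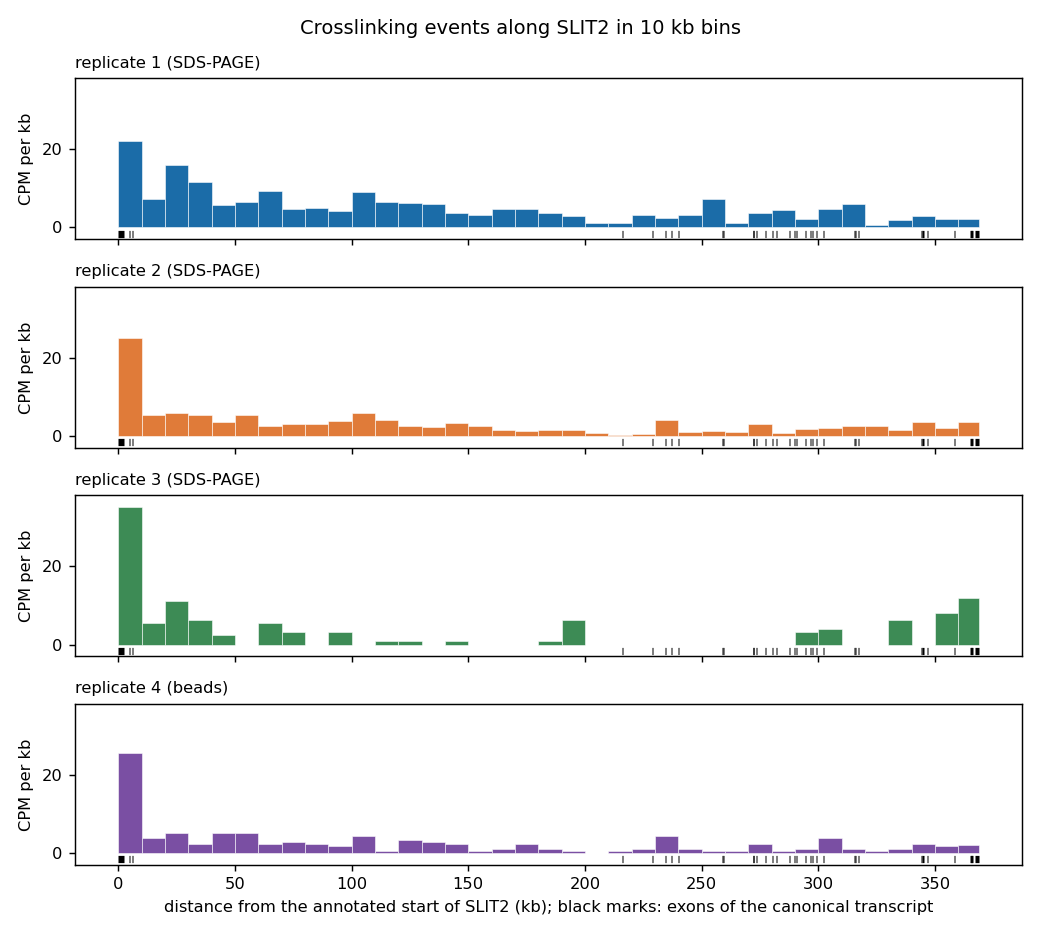
Events along SLIT2 in bins of 10 kb, in CPM per kb (vertical axis), against the distance from the annotated start in kb (horizontal axis), with a panel for each library and black marks for the exons. The first bin is the highest in each library; replicate 3 has 19 of 37 bins at 0, replicate 4 has 1, and replicates 1 and 2 have none.

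Few events lay inside the genes embedded in SLIT2. Both genes are on the same strand as SLIT2 and inside its introns, so these events cannot be assigned to them rather than to SLIT2. SLIT2-IT1, a long non-coding RNA gene of 2703 nt in intron 4 (chr4:20392154-20394856), held 4, 1, 0 and 0 events in replicates 1 to 4. This is 1.85 events per kb (95% exact Poisson interval 0.601 to 4.32), and the part of the intron in which it lies, the third of 4, had 3.66. The interval takes each cDNA as independent, but the 5 events lay at 3 positions, so it is too narrow. MIR218-1, which makes the microRNA miR-218 (chr4:20528275-20528384, intron 15), held 1 event in replicate 4 and 0 in the others. In a gene of 110 nt, 1 event is 9.09 per kb (95% exact Poisson interval 0.230 to 50.7). Intron 15 had 3.44 events per kb, and the interval is too wide to place MIR218-1 above or below it.

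The 5 pooled clusters held a small part of the events. They held 72 events, 4.23% of the pooled events of SLIT2, whereas clusters held 13.6% of all events in the pooled libraries. The share was 2.17%, 6.68%, 4.90% and 1.12% in replicates 1 to 4. Cluster 1 held 11, 11, 5 and 0 cDNAs. Cluster 2 (chr4:20252858-20252866) held 1, 14, 0 and 0 cDNAs and cluster 3 (chr4:20253676-20253695) held 1, 9, 0 and 0, so both rest on replicate 2. Cluster 4 (chr4:20271184-20271231) held 1, 7, 2 and 0 and cluster 5 (chr4:20308046-20308196) held 0, 8, 0 and 2. Clusters 1 to 3 overlapped a cluster called in a single library, and clusters 4 and 5 did not. Replicate 1 alone gave 2 clusters in SLIT2, replicate 2 gave 3, and replicates 3 and 4 gave 0. Of the 2 in replicate 1, that with 14 cDNAs in exon 1 (chr4:20252905-20253007) overlapped none of the pooled clusters. Among the 249 long genes, 5 was the highest number of clusters and the median was 0. SLIT2 also had the most events of these genes, 1701 against a median of 274, and a cluster needs a minimum of cDNAs. By the share of events in clusters it was in place 73.

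Libraries rarely shared a crosslinked position. Of the 1098 positions, 1087 (99.0%) were found in 1 library, 11 in 2 and 0 in more. Over all positions in the data, 98.0% were found in 1 library. Of the 374 positions of SLIT2 with at least 2 cDNAs, 363 got them from 1 library. Positions within 10 nt of one from another library made up 15.7%, 18.9%, 15.0% and 19.2% of those of replicates 1 to 4.

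The libraries also differed in how many cDNAs a position held. SLIT2 had 427, 470, 40 and 172 positions in replicates 1 to 4, with 1.51, 1.56, 3.58 and 1.03 cDNAs at each on average. Over the whole libraries these averages were 1.47, 1.67, 2.16 and 1.15. Positions with at least 3 cDNAs held 24.5%, 28.7%, 83.2% and 0% of the events of SLIT2, and replicate 3 had 13 of the 20 positions with at least 5 cDNAs in the pooled counts. Replicate 3 was also the library with the shortest random barcode and the fewest events, and replicate 4 the one purified with beads. The part of these differences in the results above was not tested. With each position counted once in each library, replicate 3 had 687 CPM in place of 1138 and became the lowest of the 4, SLIT2 kept 1109 events, and the share in introns was 76.2 ± 8.38% (SD, n = 4).

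Crosslinked nucleotides in the introns of SLIT2 were most often U. The share of U was 49.9%, 45.1%, 50% and 34.5% in replicates 1 to 4, and 33.0% of all intronic positions are U. All 4 libraries were above this, replicate 4 only slightly. A made up 21.3 ± 10.2% (SD, n = 4) of the crosslinked nucleotides and 31.3% of the positions. In exon 1, where U makes up 18.7% of the positions, the share of U was 23.8%, 29.9%, 74.4% and 36.8%, with replicate 3 far above the rest. The 39 events of replicate 3 in exon 1 lay at few positions, with 10 cDNAs at 1 of them. Its share thus rests on few nucleotides.

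The sequence near the intronic events was compared with that of all intronic positions of SLIT2 in a window from 5 nt upstream to 30 nt downstream, on the plus strand. UUUUA was present near 26.8%, 30.4%, 23.3% and 18.5% of the events in replicates 1 to 4, against 14.8% of all positions. It was the pentamer with the largest mean difference that was above the positions in 4 of 4 libraries. UUUUA was picked from all pentamers by these same values, so its difference is a description and was not tested. UUUUU had a larger mean difference (23.7 ± 11.3% against 12.9%) but was below the positions in replicate 4, with 8.40%. Of all pentamers, 34 were above the share of the positions in each library and 200 in none, and overlapping windows and overlapping letters make these counts dependent. Being above in 4 of 4 libraries thus does not by itself set UUUUA apart.

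GAAGA was near 96 of the 1307 intronic events. The share was 6.75%, 8.35%, 2.33% and 9.24% in replicates 1 to 4, and 4.27% of all intronic positions have GAAGA in the window. The mean difference was 2.40 ± 3.07 percentage points (SD), above 0 in 3 of 4 libraries (p = 0.25, exact two-sided sign-flip permutation test), and smaller than the SD. Replicate 3 was the library below, with 2 of its 86 intronic events near GAAGA. Its difference was -1.94 percentage points, and -0.820 with each position counted once. The mean difference depended on the window and on that library. From 30 nt upstream to 30 nt downstream it was 4.76 ± 2.03 percentage points and above 0 in 4 of 4 libraries, with 3.07 in replicate 3 (p = 0.125, exact sign-flip permutation test, the smallest possible). Without replicate 3 it was 3.85 ± 1.26 in the first window. GAAGA was in place 45 and AUAAU in place 49 of all pentamers by mean difference in percentage points. This order does not take the ratio to the share of the positions, so pentamers that are common in the introns can stand higher in it. GAAGA was near 6.67 ± 3.07% (SD, n = 4) of the events and 4.27% of the positions. AUAAU was near 9.76 ± 3.37% of the events and 7.46% of the positions. Their close places thus do not mean an equal excess relative to the positions, and an order by ratio was not made.

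In the exons, the share of events near GAAGA rested on exon 2. In exon 1, 2 of 236 events had GAAGA in the window, where 1.53% of the positions have it. In the exons outside exon 1 the share was 24.4%, 10.3%, 27.8% and 9.52% in replicates 1 to 4, with a mean of 18.0 ± 9.46% (SD) against 5.78% of the positions. Of the 25 events behind it, 18 were in exon 2, upstream of or at the GAAGA shown in capitals above. Without exons 1 and 2, 7 of 131 events remained, and the share was 5.63 ± 4.93% against 5.47% of the positions.

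Other genes of the pathway held far fewer events than SLIT2. A list of 38 ligands, receptors, coreceptors and signalling proteins of the SLIT and ROBO pathway was counted beside it. Events were found on 37 of them, and 7 (18.4%) reached 200 pooled events, against 3.51% of all protein-coding genes. Their median was 54.5 events. Among all 1502 protein-coding genes of at least 200 kb, 249 reached 200 events, but most genes of the list are shorter than that. Of those that reached 200 events, ROBO1, ROBO2 and CLASP2 are longer than 200 kb. ENAH, ARHGAP39, MYO9B and ABL2 are shorter, at 166, 157, 139 and 130 kb. No set matched for length or for transcript level was compared, so the share of 18.4% is not read as a trait of the pathway. Of 66 ligands and receptors of other guidance families, 2 (3.03%) reached 200, with a median of 34.5.

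SLIT3 and SLIT1 are the paralogous ligands. SLIT3 held 48, 62, 13 and 13 events in replicates 1 to 4, a mean of 105 ± 29.3 CPM (SD), and SLIT1 held 7, 17, 3 and 4 events, a mean of 23.8 ± 3.11 CPM. Both were below SLIT2 in each library, and this also holds per length, with 0.213 and 0.165 events per kb. The ranges of the 3 genes over the libraries did not overlap in CPM, which is a description, since SLIT2 was chosen by its count.

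Among the receptors, ROBO1 held 178, 223, 39 and 61 events in replicates 1 to 4 and ROBO2 held 76, 97, 30 and 23. Both genes are longer than SLIT2, and their densities were 0.428 and 0.13 events per kb. ROBO3, which modulates the response to SLIT at the midline, held 9 events, and ROBO4, the endothelial receptor, held 0. The list had 5 more genes with at least 200 events. ENAH, an actin regulator of the Ena/VASP family, held 420 (2.52 per kb), the GTPase-activating proteins ARHGAP39 and MYO9B held 274 and 201, and the kinase ABL2 and the microtubule-binding CLASP2 held 220 each. None of the 7 coreceptors and ligand-binding surface proteins reached 200, and their highest count was 69.

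**Figure D3:**
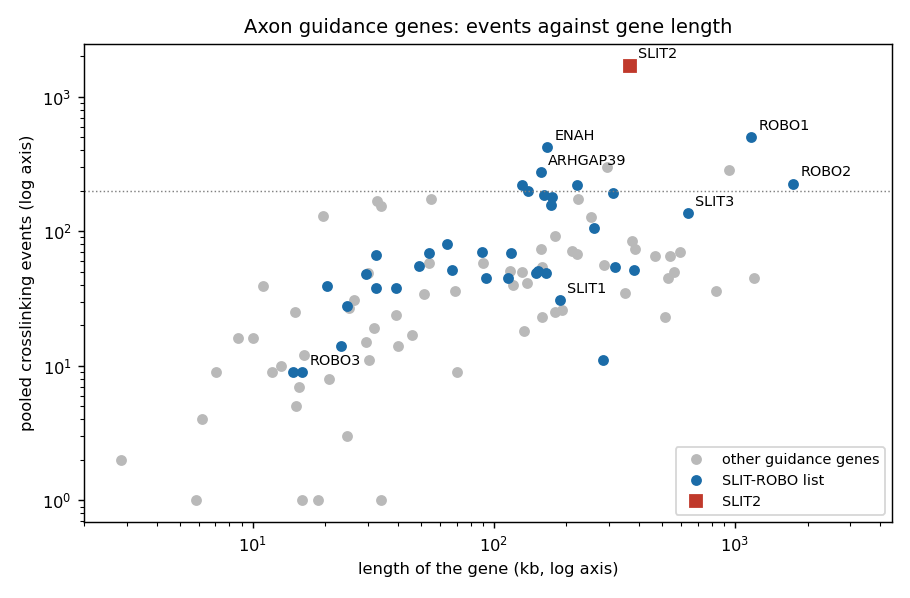
Pooled events (vertical axis, logarithmic) against gene length in kb (horizontal axis, logarithmic) for the guidance genes with at least 1 event; the dotted line marks 200 events. SLIT2, with 1701 events in 369 kb, lies above all other genes of both lists, and the longer ROBO1 and ROBO2 have 501 and 226.

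In the other guidance families the highest counts were those of the ephrin ligand EFNA5 with 300 events and the ephrin receptor EPHA6 with 284. The netrin ligand NTN1 and the plexin receptor PLXNA1 held 173 each, and the plexin PLXNB2 held 168. PLXNB2 had 5.14 events per kb, which is above the 4.61 of SLIT2, so the order of the counts is not the order of the densities.

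The pattern of SLIT2 over the 4 libraries was compared with that of 698 other protein-coding genes with at least 200 events, as the distance between centred log2(CPM + 1) values. Among the 5 closest were XRCC2, which acts in DNA repair, at a distance of 0.11, BCAS3 at 0.17, the adenosine kinase gene ADK at 0.17 and ZFAND3 at 0.17. These were highest in CPM in replicate 1, as SLIT2 was. The median distance was 1.07. With 4 libraries of 1 condition this likeness describes how the libraries differ and nothing more.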

How the data were processed

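In all 4 libraries of the condition, the authors aligned reads to GRCh38 and Gencode 27 using STAR (version not given in the sources used here), kept those with a unique hit, removed PCR copies through the random barcode and called clusters with iCount. The deposited values are counts of unique cDNAs at each crosslinked position and sums of these counts in each cluster, without normalisation. Reads with several hits are thus not counted, whichever region they came from.

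Events were placed on GRCh38 with GENCODE 44, which is later than the annotation of the authors, and CPM used the total of each library. Summed over the libraries, the counts equalled those of the pooled list. Exons were those of all transcripts of SLIT2, and introns the rest of the span. Depth ranged from 125694 to 604816 events. Nothing says that the libraries came from separate cultures, so the SD may be technical.

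SLIT2, the gene lists and the tests were chosen with earlier results of these data known. Within-gene contrasts were tested with exact sign-flip permutation tests over libraries, and levels were not tested. Named genes were SLIT2, genes embedded in it on the same strand, the ligands and receptors of the pathway, other members of the lists with at least 200 events or the 5 highest, the next genes in the order of counts and the 5 with the most similar pattern, of which 1 is not reported here. A comparison with masked repeats was not made. Computations were done in Python 3.11.15 with scipy 1.17.1, pandas 2.3.3 and numpy 2.4.6, and plots with matplotlib 3.10.9.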

Additional observations from a re-analysis of the deposited data

Results flagged for a closer look

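The share of SLIT2 events in the 3′ UTR was 9.09% in replicate 3, against 0.155%, 0.817% and 0% in replicates 1, 2 and 4. The gap between replicate 3 and the next library was 0.910 of the whole range, above the Dixon 95% critical value for 4 samples. Of 13 groups of 4 values examined in this way 1 stood out, and chance alone singles out about 1 in 20.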

How the results depend on the processing

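Of 59 alternatives, 51 planned and 8 added after seeing the data, 54 stayed within 1 SD (levels and shares), within 1.5 times (counts) or in the same direction (tests, whatever the size), and 0 reversed a result. The 54 include AUAAU in place of GAAGA near intronic events, with a difference of 2.30 against 2.40 percentage points. This is another motif and says nothing about the stability of the GAAGA result. Many alternatives also share most events with the main result and could hardly reverse it. The tests could not pass 0.05 with 4 libraries, so their p-values say nothing about stability. The pooled 1701 events of SLIT2 became 1109 with each position counted once in each library, and ranged from 967 without replicate 2 to 1558 without replicate 3. Only 1 of the 5 pooled clusters, that in exon 2, held at least 20 cDNAs. Without exon 2, the difference in GAAGA between exonic events outside exon 1 and all such positions went from 12.2 to 0.158 percentage points, because exon 2 held 18 of the 25 events near GAAGA. The share of events in clusters was 2.19% with the clusters of each library, against 3.72% with the pooled ones. With the span taken from the next annotated transcript start, added after seeing the data, 1553 events were left and the share in introns was 79.7%. The mean difference in GAAGA near intronic events was 4.76 ± 2.03 percentage points (SD), above 0 in 4 of 4 libraries, with a window of 30 nt on both sides, and between 1.54 and 3.85 with 1 library left out. The comparison with repeat-masked bases and its 6 alternatives were not run, because the reference sequence used here carries no masking. No paired analysis was possible because all libraries belong to 1 condition. Depth limits the small regions: SLIT2-IT1, MIR218-1 and most single exons held few events or none in replicates 3 and 4.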
